A study of Mus musculus with 57 samples.

Results

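The neuromuscular junction genes described here were 10 genes: 5 subunits of the muscle acetylcholine receptor (Chrna1, Chrnb1, Chrnd, Chrne and Chrng), and 5 genes that assemble the synapse around it (Musk, Dok7, Rapsn, Lrp4 and Agrn). They were chosen by name for their known function, not by a rule on measured values, although earlier results of these data were known. They are among the 26089 genes with a curated RefSeq transcript on chromosomes 1 to 19 and X of the mouse genome (mm10). All 10 were found in the annotation.

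Genome-wide distributions of 3 histone H3 modifications were measured by chromatin immunoprecipitation and sequencing (ChIP-seq) in PSAPP mice, a model of Alzheimer's disease that carries transgenes for mutant human presenilin and a chimeric mouse and human amyloid precursor protein. For each of H3K4me3, H3K27ac and H3K27me3 there were 9 libraries of brain cortex and 10 of gastrocnemius muscle, 57 libraries in all, from mice killed at 13 months. Every animal carried the transgenes and ate a modified AIN-93 diet, and no library of a mouse without the transgenes is used here, so that the comparison made here is between the 2 tissues of 1 strain. By the methods of the study both tissues were taken from the same set of male and female mice, so that the groups share animals and each holds both sexes. The sample labels do not tie a library to a sex or to an animal, and the main tests take the libraries as unpaired.

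At the neuromuscular junction, a motor nerve ending releases acetylcholine onto a muscle fibre, where pentameric receptors open as cation channels. Nerve-derived agrin binds LRP4 on the fibre, which activates the receptor tyrosine kinase MuSK together with its adaptor DOK7, and rapsyn then anchors the receptors in clusters. Receptors of foetal muscle contain the gamma subunit, which the epsilon subunit replaces after birth, and in adult fibres transcription of these genes is known to be strongest in the nuclei beneath the synapse. H3K4me3 and H3K27ac are found at active promoters, H3K27ac also at active enhancers, and H3K27me3 is the mark of Polycomb repression.

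Promoters of 4 members are shown because E-boxes (CANNTG), bound by the myogenic factors of the MyoD family, and the N-box (CCGGAA), bound by GABP, are the elements through which such genes are known to be controlled in muscle, and because these 4 promoters carried different combinations of the 3 marks. The sequences are the 250 bases before each transcription start site (TSS), 5′ to 3′ on the strand of the gene, from the RefSeq promoter table of build GRCm38.p6, the assembly called mm10. Capitals mark every CANNTG and CCGGAA found on either strand.
Chrna1, chr2:73580339-73580588, minus strand: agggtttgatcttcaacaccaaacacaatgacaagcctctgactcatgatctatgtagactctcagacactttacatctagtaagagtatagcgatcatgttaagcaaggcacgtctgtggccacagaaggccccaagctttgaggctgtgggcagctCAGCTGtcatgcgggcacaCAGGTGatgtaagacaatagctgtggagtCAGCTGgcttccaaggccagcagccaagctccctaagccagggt
Chrne, chr11:70619195-70619444, minus strand: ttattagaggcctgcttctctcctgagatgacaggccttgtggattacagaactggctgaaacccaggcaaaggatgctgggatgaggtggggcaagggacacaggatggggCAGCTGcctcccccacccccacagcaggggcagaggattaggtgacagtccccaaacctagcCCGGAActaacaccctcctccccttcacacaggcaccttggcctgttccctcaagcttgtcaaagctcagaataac
Chrng, chr1:87205561-87205810, plus strand: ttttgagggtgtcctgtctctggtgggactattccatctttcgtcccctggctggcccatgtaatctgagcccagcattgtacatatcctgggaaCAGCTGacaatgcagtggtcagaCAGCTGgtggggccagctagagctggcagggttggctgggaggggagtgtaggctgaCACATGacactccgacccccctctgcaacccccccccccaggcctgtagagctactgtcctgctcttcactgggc
Musk, chr4:58285712-58285961, plus strand: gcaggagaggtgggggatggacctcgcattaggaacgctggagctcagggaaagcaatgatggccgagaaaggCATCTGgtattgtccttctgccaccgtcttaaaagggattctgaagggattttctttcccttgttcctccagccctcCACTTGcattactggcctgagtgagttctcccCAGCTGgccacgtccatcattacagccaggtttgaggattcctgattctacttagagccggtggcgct

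All 4 held at least 1 copy of CAGCTG, a form of the E-box that was present in 13.0% of the 32851 promoters of the table when the same 250 bases were searched. An E-box of any form was present in 66.2% of them. Chrna1 held 3 E-boxes, of which 2 read CAGCTG, Chrng 3 with 2, Musk 3 with 1, and Chrne 1, which read CAGCTG. The first base of the N-box of Chrne lay 76 bases before the TSS. An N-box was present in 12.0% of all promoters. No N-box was found before the other members with an entry (Chrna1, Chrnb1, Chrng, Musk, and both entries of Agrn and of Dok7), and none of the entries of Chrnb1, Dok7 and Agrn held CAGCTG. The table had no entry for Chrnd, Rapsn and Lrp4.

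Each deposited list holds the peaks called in 1 library with the number of reads in each peak. The signal at a gene was the number of peak reads falling in a window, with the reads of a peak shared evenly along it, given as a count per 1000000 reads in all autosomal peaks of the library (CPM) and per kb of window. The window around the TSS reached 1 kb to either side, and the gene body ran from 1 kb downstream of the TSS to the gene end. A density of 0 means that no peak was called, not that no read fell there. Differences are cortex minus gastrocnemius on the scale log2(CPM per kb + 0.5), tested with limma across all genes that had a peak in the window in at least 3 libraries of the mark, and a gene was called at a Benjamini-Hochberg false discovery rate (FDR) below 0.1. Autosomal peaks held 9025744 to 18622389 reads per library for H3K4me3, 3903965 to 27042958 for H3K27ac and 2994110 to 18236388 for H3K27me3. The shallowest H3K27ac library was cortex replicate 9, with 3903965 reads against 14279570 or more in the other cortex libraries, and the deepest H3K27me3 library was gastrocnemius replicate 5, with 18236388 reads against at most 7544243 in the other gastrocnemius libraries. In bulk tissue, a mark carried by fewer cells and a mark at a lower level in each cell cannot be told apart.

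The tissue labels were checked against markers by H3K4me3 at the TSS. Of 8 muscle fibre markers, 6 were called higher in gastrocnemius and 2 higher in cortex, against their label: Mylpf (21.2 CPM per kb in cortex and 12.5 in gastrocnemius, also after median-of-ratios scaling) and Actn3 (difference 0.39, not called after that scaling), both named after their values were seen. All 8 had a peak in every gastrocnemius library and 5 had none in any cortex library; the density summed over the markers at the TSS was 75.5 to 106 CPM per kb in gastrocnemius and 27.6 to 46.0 in cortex. Of 8 neuronal markers, 8 were called higher in cortex and 4 had no H3K4me3 peak in any gastrocnemius library (sums of 80.2 to 109 and 12.6 to 17.3). Over all genes tested for H3K4me3, 61.3% were called higher in cortex and 16.0% higher in gastrocnemius. Of the markers of other cell types, 3 of 3 endothelial and 3 of 3 fibroblast markers and 2 of 3 satellite cell markers were called higher in gastrocnemius, 4 of 4 macrophage and microglia markers higher in cortex, 3 of 4 astrocyte and oligodendrocyte markers higher in cortex with 1 higher in gastrocnemius, and Schwann cell markers 2 and 2. Their part in the results below was not tested.

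The tissues also differed over all genes. The median difference of all genes tested was 0.34 for H3K4me3, 0.28 for H3K27ac and 0.10 for H3K27me3 at the TSS, and -0.14, 0.00 and 0.11 in gene bodies. Of the genes called at the TSS, 79.3% were higher in cortex for H3K4me3 and 78.8% for H3K27ac, but with median-of-ratios scaling, which sets the typical peak equal, these shares were 51.6% and 54.2%. A difference near these medians therefore depends on the scaling, and differences are given below relative to the median as well.

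An H3K4me3 peak lay within 1 kb of the TSS in every cortex library for 4 members (57.4% of all annotated genes) and in every gastrocnemius library for 6 (55.7%), and in no library for 6 (37.9%) and 1 (37.5%). For H3K27ac, 3 members had a peak in every cortex library (57.8%) and 7 in every gastrocnemius library (56.0%), and 2 (30.6%) and 0 (33.7%) had none. H3K27me3 was called in every cortex library for 2 members (13.2%) and in every gastrocnemius library for 1 (12.4%), and in no library for 5 (65.2%) and 6 (62.6%).

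For the comparison of densities at the TSS, 8 of the 10 members could be tested for H3K4me3, 10 for H3K27ac and 5 for H3K27me3, and 4 of the 8, 2 of the 10 and 3 of the 5 (Chrna1, Chrne, Musk and Rapsn; Chrng and Musk; Chrna1, Musk and Rapsn) passed the filter through peaks in 1 tissue alone. Their direction was fixed by the filter, so their calls cannot be set against the background shares. For H3K4me3, 5 members were called higher in gastrocnemius, where the background over all genes was 16.0%, and 2 higher in cortex, where it was 61.3%. Of those 5, only Chrnb1 had peaks in both tissues. For H3K27ac, 6 were called higher in gastrocnemius (background 14.1%) and 1 higher in cortex (52.6%). For H3K27me3, 4 were called higher in cortex (28.1%) and 0 higher in gastrocnemius by limma (25.7%), where an unadjusted p under 0.05 was also found for 0 members and edgeR called 1 (Chrna1). Of the 4 higher in cortex, 2 (Chrnd and Musk) were still called, and Chrng and Rapsn were not called or could not be tested, with no filter on low values, without the lowest-scoring 25% of peaks and in libraries without a run number. After median-of-ratios scaling, 6 members were called higher in gastrocnemius (background 28.9%) and 0 in cortex (30.9%) for H3K4me3, 7 (27.2%) and 0 (32.1%) for H3K27ac, and 0 (30.8%) and 4 (28.3%) for H3K27me3.

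**Figure D1:**
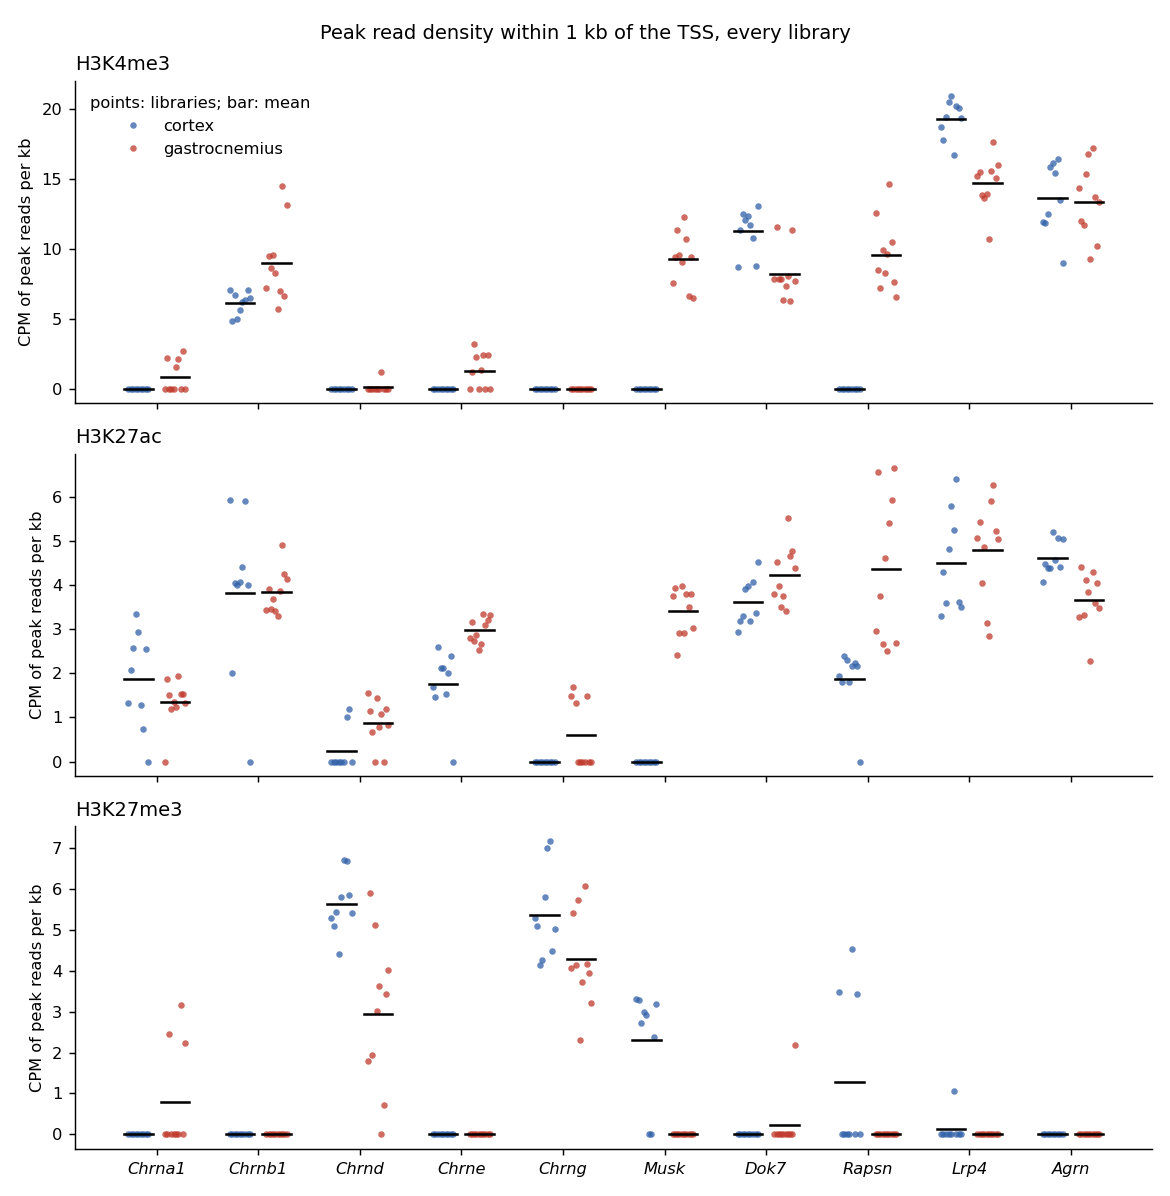
Peak read density within 1 kb of the TSS (CPM of peak reads per kb) of the 10 genes, with 1 panel per mark, blue points for the 9 cortex libraries, red points for the 10 gastrocnemius libraries and black bars for the means. Musk and Rapsn have H3K4me3 in all 10 gastrocnemius libraries and in no cortex library, and Chrnd and Chrng have H3K27me3 in both tissues.

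Among the receptor subunits, the genes fell into distinct states. Chrnb1, which encodes the beta subunit (chr11:69784036-69795937, minus strand), was the only subunit with an H3K4me3 peak at the TSS in all 19 libraries. Its density was 4.85, 6.31 and 7.08 CPM per kb (lowest, median and highest library) in cortex and 5.73, 8.46 and 14.4 in gastrocnemius. The groups overlapped, with the gastrocnemius higher on average: the difference was -0.48 ± 0.14 (SE; FDR 0.0049), or -0.82 relative to all genes. Chrnb1 carried H3K27ac at the TSS in 8 of 9 cortex and 10 of 10 gastrocnemius libraries, with means of 3.82 ± 1.84 (SD, n = 9) and 3.84 ± 0.49 CPM per kb (SD, n = 10), and was not called (difference -0.25 ± 0.33, FDR 0.52). The exception in cortex was the shallow replicate 9, and without it the difference was 0.11 (FDR 0.52). No H3K27me3 peak was called at Chrnb1 in any library.

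Chrna1, the gene of the acetylcholine-binding alpha subunit (chr2:73563281-73580338, minus strand), had no H3K4me3 peak at the TSS in any cortex library and had 1 in 4 of 10 gastrocnemius libraries. In those 4, replicates 2, 6, 7 and 9, the density was 2.18, 1.55, 2.13 and 2.70 CPM per kb. By limma the gene was called higher in gastrocnemius (difference -0.95 ± 0.39, FDR 0.034), although 6 gastrocnemius libraries were at 0 like the cortex. Fisher's exact test on the H3K4me3 peak calls did not call it (FDR 0.70). H3K27ac covered the TSS of Chrna1 in 8 of 9 cortex and 9 of 10 gastrocnemius libraries, at 0, 2.08 and 3.34 CPM per kb in cortex and 0, 1.43 and 1.94 in gastrocnemius (lowest, median, highest), and the difference of 0.25 ± 0.34 was not called (FDR 0.53). It was 0.50 without cortex replicate 9 (FDR 0.12), and 0.55 without the shallowest library of each tissue, where it was called (FDR 0.095). In cortex these peaks were 0.8 to 52.6 kb wide and in 5 libraries also held the start of Chrna1os, an opposite-strand gene whose start lies 4522 bases from that of Chrna1, and in 4 that of Chn1os3, 16.2 kb away, whereas in gastrocnemius they were 2.2 to 5.2 kb wide and held no other start. H3K27me3 was called at Chrna1 in 3 gastrocnemius libraries and in none of cortex (difference -0.79 ± 0.41, FDR 0.12, not called).

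The epsilon and gamma subunit genes, whose products exchange at birth, carried different marks. Chrne (chr11:70614883-70619194, minus strand) had an H3K4me3 peak within 1 kb of the TSS in 6 of 10 gastrocnemius libraries, at 1.18 to 3.18 CPM per kb where called, and in none of cortex. By limma it was called higher in gastrocnemius (difference -1.41 ± 0.39, FDR 0.0032), a size that depends on the added 0.5 because the cortex was at 0. Fisher's exact test on the H3K4me3 peak calls did not call it (FDR 0.11). For H3K27ac the lowest, median and highest densities of Chrne were 0, 2.01 and 2.60 CPM per kb in cortex and 2.54, 2.98 and 3.36 in gastrocnemius. The gastrocnemius was higher by 1.68 times in the means (difference -0.75 ± 0.24, FDR 0.010), and still called without cortex replicate 9, where no peak was called (-0.49, FDR 0.00015). No H3K27me3 peak was called at the TSS of Chrne in any of the 19 libraries.

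Chrng (chr1:87205811-87211835, plus strand) had no H3K4me3 peak at the TSS in any library of either tissue. H3K27me3 was called there in all 19 libraries, at 4.15, 5.10 and 7.18 CPM per kb in cortex and 2.3, 4.11 and 6.07 in gastrocnemius. The difference of 0.32 ± 0.15 lay at the threshold (FDR 0.098), and the groups overlapped. It was not called without gastrocnemius replicate 5 (0.23, FDR 0.15) or with the title number or the code in the deposited names as a block (0.28, FDR 0.20, and 0.23, FDR 0.15). After median-of-ratios scaling it was called (0.22, FDR 0.0083), but not with DESeq2 (0.25, FDR 0.12). H3K27ac was called at Chrng in 4 of 10 gastrocnemius libraries, replicates 1, 2, 3 and 8, at 1.33 to 1.70 CPM per kb, and in no cortex library (difference -0.80 ± 0.33, FDR 0.041). In each of these 4 the H3K27me3 library of the same number also had a peak. Fisher's exact test on the H3K27ac peak calls did not call Chrng (FDR 0.49). Deposited names of 6 gastrocnemius and 7 cortex libraries carry no run number; among these the difference was -1.33 (FDR 0.0068), and among the 4 and 2 libraries that carry one, no peak was called at Chrng.

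The 2 genes had an active mark in the same library only for H3K27ac in gastrocnemius. In replicates 1, 2, 3 and 8, where both had an H3K27ac peak, Chrne was at 2.80, 3.16, 2.74 and 3.09 CPM per kb and Chrng at 1.48, 1.70, 1.33 and 1.49. The H3K27ac peak at Chrne also held the start of 4930544D05Rik, an opposite-strand gene that starts 3300 bases away, in 9 of 10 gastrocnemius and 7 of 9 cortex libraries, and the H3K4me3 peak did so in each of the 6 gastrocnemius libraries that had one. The values of Chrne are thus not those of the subunit gene alone.

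Chrnd, the delta subunit gene (chr1:87190597-87200070, plus strand), begins 15.2 kb before Chrng on the same strand. Like Chrng it carried H3K27me3, with 4.42, 5.45 and 6.72 CPM per kb in cortex and 0, 3.22 and 5.90 in gastrocnemius. The cortex was 1.91 times higher in the means (difference 1.12 ± 0.36, FDR 0.016), although the 3 highest gastrocnemius libraries, replicates 2, 4 and 10, were at 5.90, 5.11 and 4.02. A single H3K27me3 peak held the starts of both genes in 2 of 9 cortex libraries and in none of gastrocnemius. The peak at Chrnd also held the start of Prss56, 7283 bases away, in 3 of 9 cortex and 6 of 10 gastrocnemius libraries, and that of Ecel1 in 1 gastrocnemius library. H3K27ac was called at Chrnd in 8 of 10 gastrocnemius and 2 of 9 cortex libraries (0.87 ± 0.54 and 0.24 ± 0.49 CPM per kb; difference -0.94 ± 0.32, FDR 0.016). Without the lowest-scoring 25% of peaks in each library the difference was 0.05 (FDR 0.90), and neither edgeR nor DESeq2 called it (FDR 0.22 with each). H3K4me3 was called at Chrnd in 1 library, gastrocnemius replicate 7.

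The widest differences between the tissues among the 10 genes, for H3K4me3 at the TSS, were at Rapsn and Musk. Musk, the gene of the receptor tyrosine kinase (chr4:58285962-58374303, plus strand), had no H3K4me3 peak at the TSS in any cortex library and 6.51, 9.44 and 12.3 CPM per kb in gastrocnemius (lowest, median, highest). All 10 gastrocnemius libraries were above all 9 cortex libraries, a separation in this direction seen in 6.57% of genes tested. The difference was -4.26 ± 0.11 (FDR 1.7e-19), which depends on the added 0.5 because the cortex was at 0. H3K27ac followed, with no peak in cortex and 2.42, 3.63 and 3.99 CPM per kb in gastrocnemius (difference -2.95 ± 0.10, FDR 4.6e-17), again without overlap, which held for 4.41% of genes in this direction.

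At the same promoter H3K27me3 was reversed. Musk had an H3K27me3 peak in 7 of 9 cortex libraries, at 2.37 to 3.32 CPM per kb where called, and in 0 of 10 gastrocnemius libraries; cortex replicates 6 and 7 had none. The difference was 2.17 ± 0.39 (FDR 0.00011), 2.07 above the median of all genes. By Fisher's exact test on the peak calls, Musk was the only member called for each of the 3 marks: more often in gastrocnemius for H3K4me3 and H3K27ac (10 of 10 against 0 of 9), where 3.38% and 4.26% of genes were called in that direction, and more often in cortex for H3K27me3 (FDR 0.0059), where 9.92% were. The H3K27me3 call by Fisher's test was lost among the libraries whose deposited names carry no run number. Among those libraries the differences of Musk in density were -4.25 for H3K4me3, -2.94 for H3K27ac and 2.02 for H3K27me3 (FDR 0.010); among those that carry one they were -4.26, -2.96 and 2.70. Away from the TSS, H3K27ac peaks extended along Musk in gastrocnemius, and a region 63.6 to 65.8 kb downstream carried H3K4me3 in 8 of 10 libraries.

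Rapsn, which encodes rapsyn (chr2:91035627-91045729, plus strand), matched Musk in H3K4me3 but not in H3K27ac. Its H3K4me3 density at the TSS was 0 in every cortex library and 6.55, 9.05 and 14.6 CPM per kb in gastrocnemius (difference -4.29 ± 0.12, FDR 9.2e-19). H3K27ac, in contrast, was called at the TSS in 8 of 9 cortex libraries, all but replicate 9, at 1.81 to 2.40 CPM per kb. In gastrocnemius it was 2.5, 4.18 and 6.65, above every cortex library and 2.34 times higher in the means (difference -1.09 ± 0.28, FDR 0.0022). Such a separation held for 4.41% of genes tested, and the gap was narrow, from 2.40 in cortex to 2.5 in gastrocnemius. Without cortex replicate 9 the difference was -0.83 (FDR 0.00044). H3K27me3 was called at the TSS in cortex replicates 1, 6 and 8, at 3.48, 4.53 and 3.43 CPM per kb, and in no gastrocnemius library (difference 1.03 ± 0.47, FDR 0.078; FDR 0.34 with no filter on low values). In these 3 the H3K27ac library of the same number had a peak as well. Fisher's exact test on the H3K27me3 peak calls did not call Rapsn (FDR 0.25). Further into the gene, between 5.17 and 7.37 kb from the TSS, H3K27me3 was called in 5 of 9 cortex libraries and in no gastrocnemius library.

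**Figure D2:**
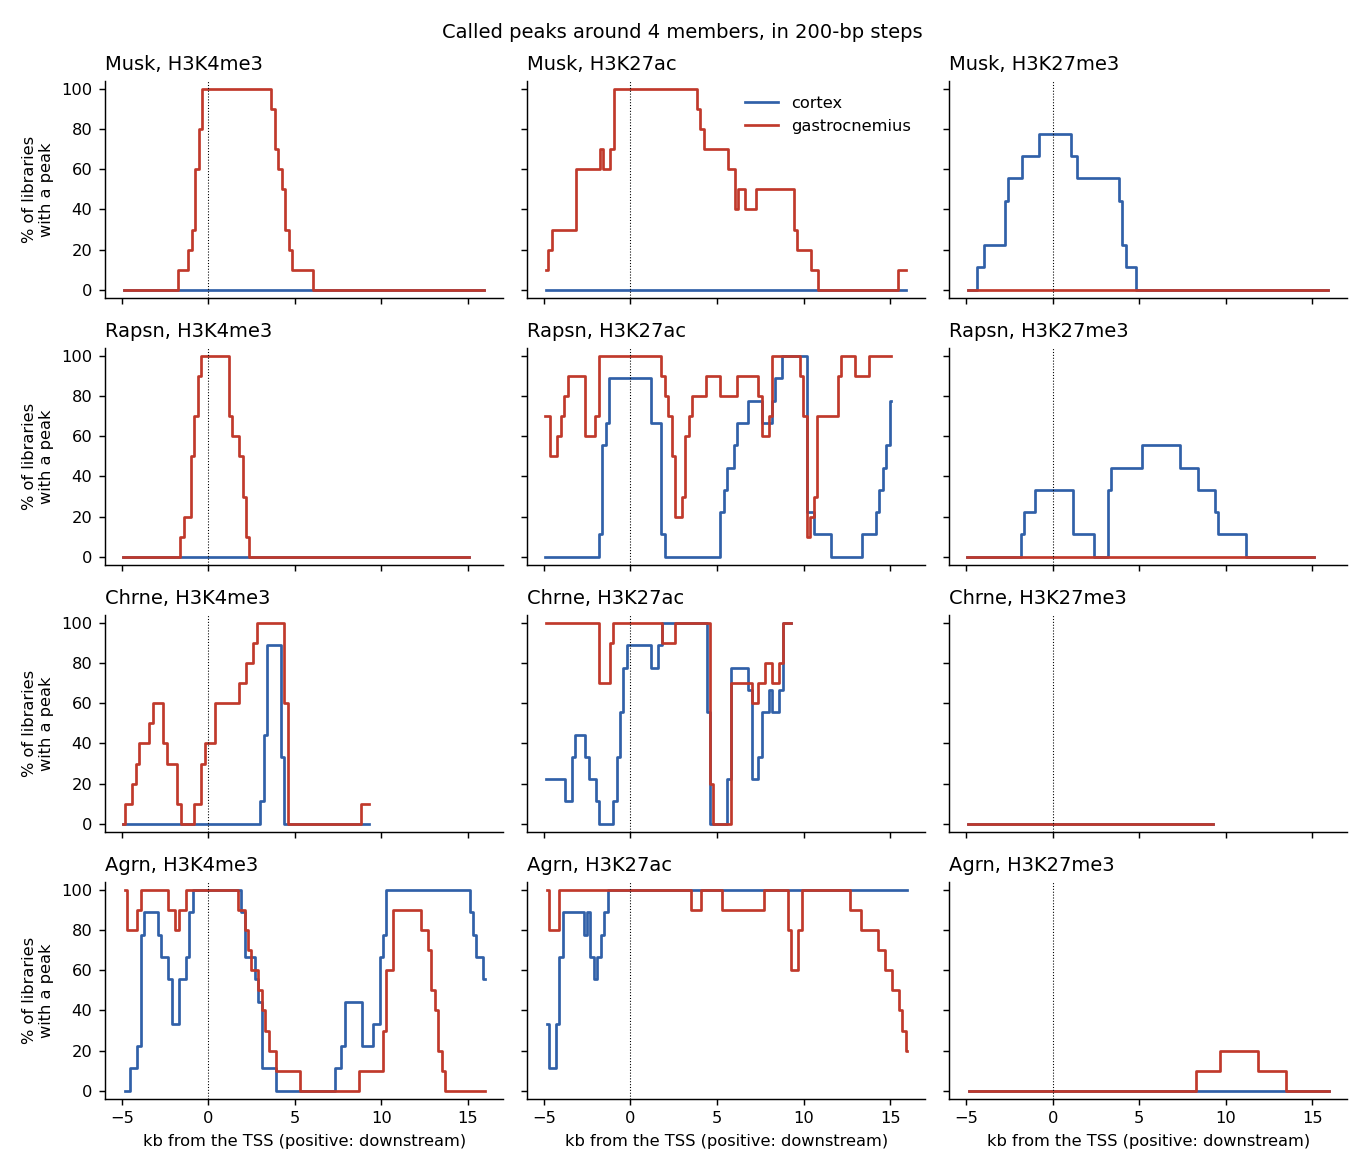
Share of libraries (%) with a called peak in each 200-bp step against distance from the TSS in kb, for Musk, Rapsn, Chrne and Agrn (rows) and the 3 marks (columns), in cortex (blue) and gastrocnemius (red); lines end 5 kb past the end of a gene or at 16 kb. H3K27me3 at Musk is seen in cortex alone, and a second block of H3K4me3 in Agrn begins 9.89 kb (cortex) and 10.3 kb (gastrocnemius) downstream.

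Dok7 and Lrp4 had H3K4me3 and H3K27ac at the TSS in all libraries of both tissues. Dok7, encoding the MuSK adaptor (chr5:35056766-35087839, plus strand), had 8.71, 11.7 and 13.0 CPM per kb of H3K4me3 in cortex and 6.27, 7.82 and 11.6 in gastrocnemius. Lrp4, encoding the agrin receptor (chr2:91457531-91513901, plus strand), had the highest H3K4me3 density of the 10 genes, at 16.7, 19.4 and 20.9 in cortex and 10.7, 15.1 and 17.6 in gastrocnemius. Both were called higher in cortex (0.44 ± 0.11, FDR 0.0016 for Dok7, and 0.39 ± 0.08, FDR 0.00022 for Lrp4), but by 0.10 and 0.05 relative to all genes, and neither was called after median-of-ratios scaling (FDR 0.38 and 0.43). H3K27ac at the TSS was higher in gastrocnemius at Dok7 (-0.20 ± 0.09, FDR 0.065; -0.49 relative to all genes). At Lrp4 it was 4.51 ± 1.12 (SD, n = 9) in cortex and 4.79 ± 1.12 CPM per kb (SD, n = 10) in gastrocnemius and was not called (-0.08 ± 0.14, FDR 0.65), although after median-of-ratios scaling it was (-0.34, FDR 0.023). H3K27me3 was called at the TSS of Dok7 in 1 gastrocnemius library and of Lrp4 in 1 cortex library.

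Agrn encodes agrin (chr4:156165290-156197488, minus strand), which motor neurons secrete and which many tissues make; neurons of the brain are also known to make a transmembrane form from a separate start. At the first start H3K4me3 was 9.01, 13.5 and 16.4 CPM per kb in cortex and 9.27, 13.5 and 17.2 in gastrocnemius, with almost the same medians (difference 0.03 ± 0.12, FDR 0.85). Relative to all genes that is -0.31, and Agrn was called higher in gastrocnemius after median-of-ratios scaling (-0.30, FDR 0.032), by edgeR and DESeq2 (FDR 0.045 and 0.014) and in a window of 2.5 kb (FDR 0.019). H3K27ac there was 4.62 ± 0.39 (SD, n = 9) and 3.67 ± 0.63 CPM per kb (SD, n = 10) and was called higher in cortex (0.31 ± 0.09, FDR 0.0067), which was 0.03 relative to all genes and not called after that scaling (FDR 0.59).

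A second curated transcript of Agrn starts 11.2 kb downstream, at position 156186259, and there the tissues parted. H3K4me3 within 1 kb of it was 10.1, 13.3 and 15.7 CPM per kb in cortex, as high as at the first start, and 0, 2.18 and 3.49 in gastrocnemius, where 9 of 10 libraries had a peak. The lowest cortex library was above the highest of gastrocnemius. In gene bodies, 14.5% of genes separated in this direction for H3K4me3. This start was looked at after the values of the gene body were seen, and its levels are given without a test. H3K27ac at the second start was 4.06 to 5.20 CPM per kb in cortex and 2.01 to 4.04 in gastrocnemius. In cortex the values were the same as at the first start, because 1 H3K27ac peak of 20 to 28.6 kb held both. No H3K27me3 peak was called at the first start of Agrn in any library, and at the second start in 2 of 10 gastrocnemius libraries and none of cortex.

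**Figure D3:**
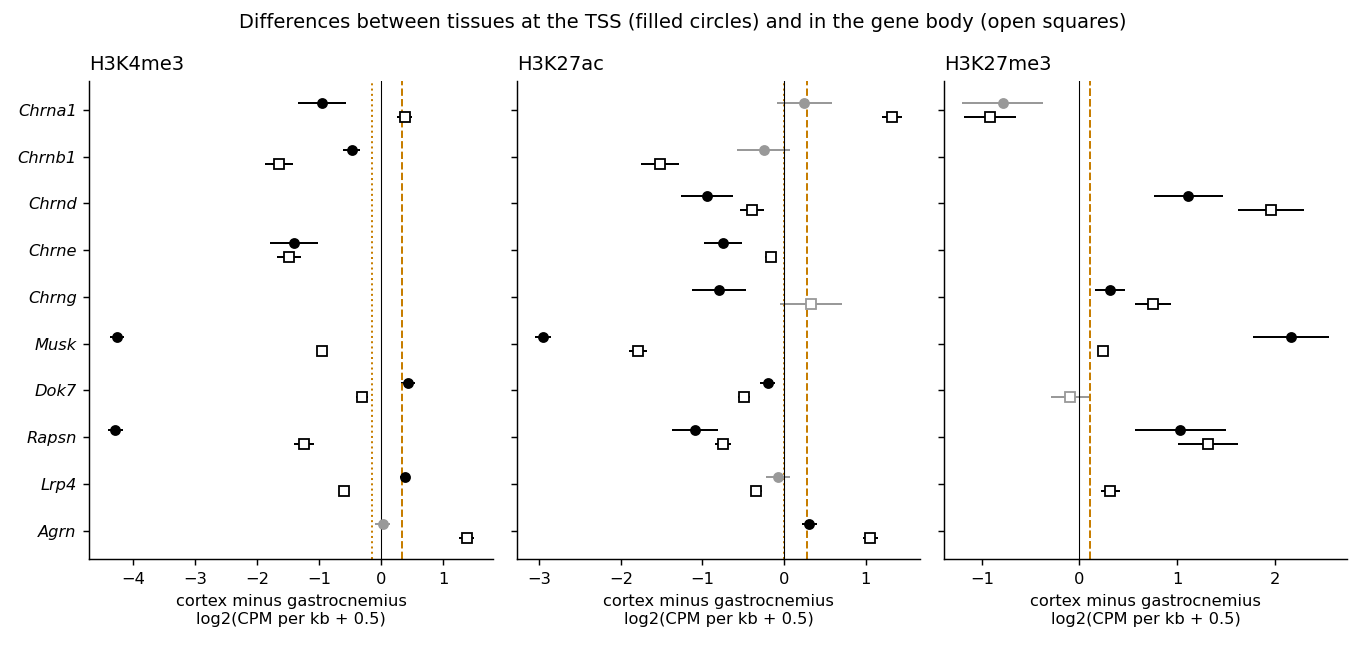
Difference between tissues (cortex minus gastrocnemius, log2(CPM per kb + 0.5)) with its SE for each gene that could be tested, at the TSS (filled circles) and in the gene body (open squares), for the 3 marks; black symbols passed an FDR of 0.1 and grey symbols did not. Dashed (TSS) and dotted (gene body) lines give the median of all genes tested, 0.34, 0.28 and 0.10 at the TSS, near which Dok7 and Lrp4 lie for H3K4me3.

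In gene bodies, 8 of 10 members could be tested for H3K4me3. The calls were 6 higher in gastrocnemius (background 43.6%) and 2 higher in cortex (26.7%), Agrn and Chrna1. That of Chrna1 (0.38, FDR 0.0091) was lost in libraries without a run number (0.22, FDR 0.21), with edgeR (FDR 0.14) and over the whole gene (FDR 0.13). For H3K27ac, 7 of 10 were called higher in gastrocnemius (37.0%) and 2 higher in cortex (38.1%), and for H3K27me3, of 7 that could be tested, 5 higher in cortex (37.4%) and 1 higher in gastrocnemius (30.1%). Of these, Musk and Rapsn for H3K4me3, and Musk, Rapsn, Lrp4 and Chrna1 for H3K27me3, had passed the filter through 1 tissue alone. That fixed their direction, so their calls cannot be set against the background shares. In Agrn, H3K4me3 was 3.14, 3.37 and 3.67 CPM per kb in cortex and 0.53, 1.06 and 1.87 in gastrocnemius, without overlap and with the cortex higher (1.39 ± 0.12, FDR 5.5e-09). Separation in this direction was seen in 14.5% of genes. Its H3K27ac was 2.43 times higher in cortex (1.06 ± 0.09, FDR 2.4e-09).

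Chrnb1, like Musk, was higher in gastrocnemius in both active marks. Its H3K4me3 in the gene body was 0 to 0.33 CPM per kb in cortex and 0.48 to 2.72 in gastrocnemius, 8.78 times higher in the means (difference -1.65 ± 0.22, FDR 2.2e-06). H3K27ac was 0 to 2.68 in cortex and 2.77 to 3.68 in gastrocnemius (-1.52 ± 0.23, FDR 6.7e-06). The groups did not overlap in either mark, as for 13.4% and 17.2% of genes in this direction. The H3K27ac peak at Chrnb1 also held the starts of the neighbours Fgf11 and Tmem102 in all 10 gastrocnemius libraries and in 7 and 5 of 9 cortex libraries, so its reads are shared with them.

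In Chrne the H3K4me3 lay within the gene rather than at its start. Over the gene body it was 0, 1.12 and 1.45 CPM per kb in cortex and 2.99, 3.50 and 4.36 in gastrocnemius, which was 3.44 times higher without overlap (-1.48 ± 0.19, FDR 1.2e-06). Separation in this direction was seen in 13.4% of genes. The region called in at least 50% of the libraries ran from 0.39 to 4.59 kb downstream of the TSS in gastrocnemius and from 3.39 to 4.19 kb in cortex. The start of 4930544D05Rik, on the opposite strand and 3300 bases from that of Chrne, lies in the gastrocnemius region and just outside the cortex region, and ChIP-seq reads cannot be assigned to either gene.

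Chrna1 went the other way in its body. H3K27ac there was 0.88, 1.21 and 1.48 CPM per kb in cortex and 0.016, 0.12 and 0.46 in gastrocnemius, 6.68 times higher in cortex without overlap (1.32 ± 0.12, FDR 5.3e-09; background 18.6%). In cortex it was concentrated in regions 6.54 to 8.94 kb and 12.7 to 14.7 kb from the TSS, called in 9 of 9 libraries, and the first of these also carried H3K4me3 in 7 of 9. H3K27me3 in the body of Chrna1 was called in 6 of 10 gastrocnemius libraries and no cortex library (-0.92 ± 0.27, FDR 0.0065). Without the lowest-scoring 25% of peaks in each library too few libraries kept a peak there for a test.

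The remaining bodies followed their promoters in part. In Musk the H3K27ac of the gene body was 0.83, 1.20 and 2.08 CPM per kb in gastrocnemius and at most 0.034 in cortex (-1.79 ± 0.11, FDR 1.2e-11), and H3K4me3 was also higher in gastrocnemius (-0.96, FDR 5.6e-12), with no peak in cortex. Rapsn, Dok7 and Lrp4 were higher in gastrocnemius in both H3K27ac (-0.75, -0.49 and -0.34) and H3K4me3 (-1.24, -0.31 and -0.60), so that for H3K4me3 the differences of Dok7 and Lrp4 had opposite signs at the TSS and in the body, also after median-of-ratios scaling (0.12 and 0.06 at the TSS, not called; -0.20 and -0.49 in the body, called). The H3K4me3 call in the body of Dok7 was lost without the lowest-scoring peaks (-0.22, FDR 0.11) and over the whole gene (-0.098, FDR 0.25). H3K4me3 peaks at the TSS had medians of 3.2 kb in cortex and 6.0 kb in gastrocnemius at Dok7, and 3.0 and 7.6 kb at Lrp4. Reads were shared evenly along a peak, so those of a TSS peak reaching past 1 kb downstream also counted in the body. The part of peak width in the opposite signs was not tested. H3K27me3 in the body of Chrnd was 3.57, 4.53 and 5.82 in cortex and 0, 0.98 and 2.51 in gastrocnemius, 4.19 times higher in cortex without overlap (1.96 ± 0.34, FDR 6.2e-05; background 9.75%). In Chrng it was 1.74 times higher in cortex (0.75 ± 0.18, FDR 0.0017), and in Rapsn it was called in 7 of 9 cortex libraries and no gastrocnemius library (1.32 ± 0.31, FDR 0.0012).

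**Figure D4:**
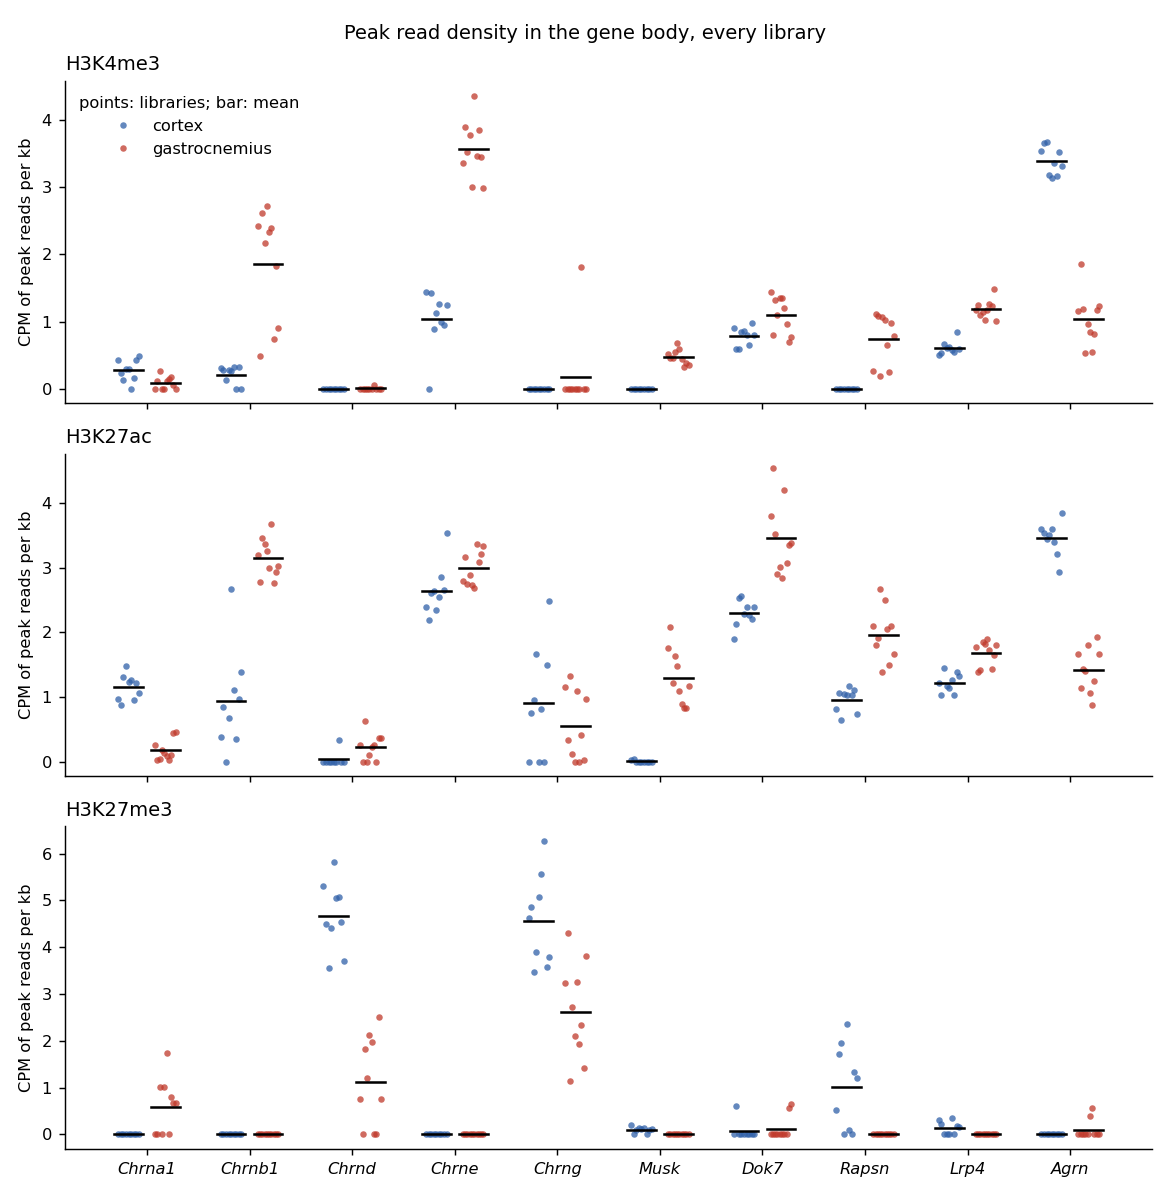
Peak read density in the gene body (CPM of peak reads per kb), from 1 kb downstream of the TSS to the gene end, with 1 panel per mark, blue points for cortex, red points for gastrocnemius libraries and black bars for the means. Agrn is above in cortex for H3K4me3 and H3K27ac, Chrnb1 is above in gastrocnemius for both, and Chrnd is above in cortex for H3K27me3.

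The 4 members with an H3K4me3 peak at the TSS in every library had a higher median peak width in gastrocnemius. At Chrnb1 they were 1.0 to 1.4 kb wide in cortex and 2.0 to 14.6 kb in gastrocnemius, where in 3 of 10 libraries the peak also held the starts of Fgf11, G630025P09Rik and Tmem102, and at Lrp4 2.6 to 3.8 and 6.2 to 10 kb. Neither pair of ranges overlapped, as for 9.75% of the 13837 genes with a peak in every library. Dok7 (medians of 3.2 and 6.0 kb) and Agrn (4.2 and 11.4 kb) overlapped, and the median over those genes was 3.0 kb in cortex and 3.9 kb in gastrocnemius. H3K27ac peaks at Lrp4 were 3.0 to 10.2 kb wide in cortex and 10.8 to 36 kb in gastrocnemius, also without overlap, as for 11.3% of genes. The H3K4me3 peak at Agrn held the start of its neighbour Isg15, 3330 bases away, in 8 of 10 gastrocnemius and 1 of 9 cortex libraries, and the H3K27ac peak did so in 10 of 10 and 4 of 9.

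The 4 members with H3K4me3 in every library of both tissues had more CpG at the start than the other 6. The ratio of observed to expected CpG dinucleotides within 1 kb of the TSS was 0.78 at Agrn, 0.64 at Lrp4, 0.53 at Chrnb1 and 0.48 at Dok7, against a median of 0.44 over all genes; Dok7 lay below the lower quartile of 0.50 of genes with a peak in every cortex library. The other 6 lay below that median, between 0.18 at Rapsn and 0.31 at Musk. None of these 6 had an H3K4me3 peak in cortex, where genes without any such peak had a median ratio of 0.18 and genes with one in every library 0.62. In gastrocnemius Rapsn and Musk had H3K4me3 in every library despite ratios of 0.18 and 0.31, where genes with a peak in every gastrocnemius library had quartiles of 0.50 and 0.73.

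**Figure D5:**
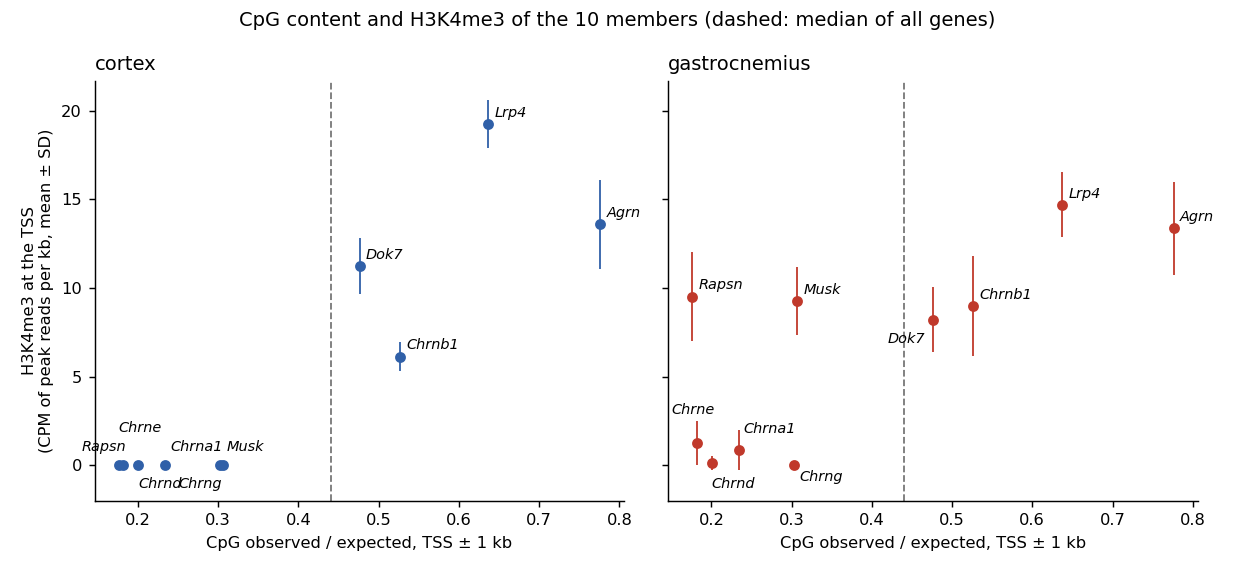
Mean H3K4me3 density at the TSS (CPM of peak reads per kb, bars give the SD over libraries) against the ratio of observed to expected CpG within 1 kb of the TSS, for the 10 genes in cortex (left) and gastrocnemius (right); the dashed line is the median ratio of all genes, 0.44. Rapsn and Musk stand apart in gastrocnemius, with H3K4me3 at ratios of 0.18 and 0.31.

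Marks were compared on libraries of the same number, which within a tissue carry the same code in the deposited names. No number had H3K4me3 and H3K27me3 peaks together at a member's TSS, other than 1 of 10 gastrocnemius numbers at Dok7 and 1 of 9 cortex numbers at Lrp4. H3K27ac and H3K27me3 peaks were found together at Chrnd in 7 gastrocnemius and 2 cortex numbers, at Chrng in 4 gastrocnemius numbers, at Chrna1 in 3 gastrocnemius numbers, at Rapsn in 3 cortex numbers, and at Dok7 in 1 gastrocnemius and Lrp4 in 1 cortex number. H3K27ac without H3K4me3 was found at Chrna1, Chrne and Rapsn in 8 of 9 cortex numbers each and at Chrnd in 2, and in gastrocnemius at Chrnd in 7 of 10 numbers, Chrna1 in 5, and Chrne and Chrng in 4 each.

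Of 22 other genes of the synapse, 11 were called higher in cortex (background 61.3%) and 7 higher in gastrocnemius (16.0%) at the TSS for H3K4me3. After median-of-ratios scaling these counts were 5 (background 30.9%) and 8 (28.9%). For H3K27ac 11 (52.6%) and 8 (14.1%) were called, or 6 (32.1%) and 9 (27.2%) after that scaling. The median differences were 0.29 and 0.31, close to those of all genes. The largest differences toward cortex for H3K4me3 were those of the neuregulin gene Nrg1 and its receptor gene Erbb4 (1.84 and 1.48), followed by Plec (0.84). On the gastrocnemius side were Scn4a, the sodium channel of muscle (-1.53), Colq, which anchors acetylcholinesterase (-1.15), and Nes (-1.0). For H3K27ac the leading genes were Nrg1, Erbb4 and Crkl in cortex (2.78, 2.68 and 0.76) and Scn4a, Col13a1 and Lama5 in gastrocnemius (-3.47, -0.85 and -0.66). Nrg1 had H3K27ac peaks in cortex alone and Scn4a in gastrocnemius alone. H3K27me3 was called higher in cortex in 5 of 12 tested (background 28.1%) and in gastrocnemius in 0 by limma, where 0 had an unadjusted p under 0.05 and where edgeR called 2 (Ache and Nrg1) and DESeq2 called 1 (Nrg1). It was led by Scn4a, Lama5 and Lamb2 (3.25, 3.08 and 3.07), which had peaks in 9 of 9 cortex and 0 of 10 gastrocnemius libraries.

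Of 5 glycosylation genes whose loss causes congenital myasthenia, 4 were called higher in cortex for H3K4me3 (background 61.3%), led by Gmppb (0.99), Dpagt1 (0.60) and Alg2 (0.56). After median-of-ratios scaling 3 were higher in cortex (30.9%) and 1 in gastrocnemius (28.9%). For H3K27ac 3 were called higher in cortex (52.6%) and 1 higher in gastrocnemius (Gmppb, -0.24, background 14.1%). After that scaling 0 were higher in cortex (32.1%) and 1 in gastrocnemius (27.2%). None of the 5 had an H3K27me3 peak at the TSS in any library. The 3 genes of the cholinergic nerve ending, Chat, Slc18a3 and Slc5a7, were called higher in cortex for H3K4me3 (0.97, 2.18 and 1.72; background 61.3%) and had no peak in gastrocnemius, had no H3K27ac peak in either tissue, and were called higher in cortex for H3K27me3 as well (0.51, 0.49 and 1.82; 28.1%).

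The 11 subunits of neuronal nicotinic receptors, the relatives of the muscle subunits, were called on the cortex side for H3K4me3 in 4 of 6 tested (background 61.3%), led by Chrnb2 (5.22) and Chrna3 (2.55), which had peaks in cortex alone, and Chrna4 (1.46). For H3K27ac 4 of 6 tested were higher in cortex (52.6%), led by Chrnb2, Chrna7 and Chrna4 (3.35, 2.26 and 1.76), and 2 higher in gastrocnemius (14.1%), Chrna2 and Chrna10 (-1.80 and -1.42); Chrnb2 and Chrna3 had peaks in cortex alone and Chrna2 in gastrocnemius alone. For H3K27me3, 4 of 10 were called higher in gastrocnemius (25.7%), led by Chrna7, Chrnb3 and Chrna6 (-2.12, -1.67 and -1.62), and 1 higher in cortex (28.1%; Chrna9, 0.92), or 6 and 3 after median-of-ratios scaling.

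The genes whose TSS densities were most like those of each member were found from the mean absolute difference over 6 means (3 marks in 2 tissues) of log2(CPM per kb + 0.5), leaving out genes within 10 kb. For Musk they were Cacng1 (0.08), Dhrs7c (0.09) and Trim55 (0.10), and for Rapsn Mir1a-2 (0.20), Xirp1 (0.21) and Mir1b (0.22). For Chrne they were Adig, Tulp2 and Tmigd1 (0.05 to 0.08), for Chrng Cdx1, Mir483 and Napsa (0.07 to 0.08), for Chrnd AY702103, Prr15l and Upk3bl (0.14 to 0.17), for Chrna1 1700125H03Rik, Fam171a1 and Gm51288 (0.16 to 0.20), and for Chrnb1 Prr13, Card6 and Cpq (0.05). Dok7 was most like Dock6, Nfkbie and Pdpr (0.07 to 0.08), Lrp4 like Anxa9, Cers2 and E130215H24Rik (0.05 to 0.06), and Agrn like Ccl27a, Atxn7 and Ndufb4 (0.02 to 0.03).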

How the data were processed

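ChIP-seq of H3K4me3, H3K27ac and H3K27me3 was performed in brain cortexes (9 libraries per mark) and gastrocnemius (10 per mark). According to the methods of the study, alignment by the authors used BWA and the mm10 build, filtering used SAMtools, and peaks were called by epic2 in each library apart (200-bp windows; version not given in the sources used here). The deposited lists hold, per peak, a whole-number count of ChIP reads, which was used, and the score of the authors' peak caller, used only to leave out the lowest 25% of peaks in an alternative. Peaks below the caller's threshold are not listed, and reads falling there are not known.

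Genes were curated RefSeq genes of the same build. Because peak reads were spread evenly along each peak and are 0 where no peak was called, window values are no longer counts, and limma 3.58.1 (lmFit and eBayes with trend, R 4.3.3) on log2 densities was the main test. Alternatives included edgeR 4.0.16 and DESeq2 1.42.0 on rounded window reads. Gene bodies under 1 kb were not tested. Fisher's exact test was used for the numbers of libraries with a peak (two-sided; Python 3.11.15, SciPy 1.17.1). The planned test of Chrne minus Chrng is not reported, because in every mark and tissue at least 1 of the genes lacked a peak in most or all libraries. Scripts were tested on simulated data. Sequences and promoter motifs came from RefSeq (GRCm38.p6).

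All 10 members were named for every mark. Of other lists, at most 3 genes per mark and direction were named, those with the largest difference among those called at the TSS. Members, lists and the rules for them were chosen with earlier results of these data known. Leaving out cortex replicate 9 or gastrocnemius replicate 5, and the second start of Agrn, were chosen after the data were seen. The samples are numbered per tissue, and the study used 1 strain of mice of both sexes; the labels do not tie a library to a sex. Of 9 title numbers found in both tissues, 4 carried the same code in the deposited names and 5 did not, and libraries of the same number did not deviate together (correlations of -0.13 to 0.12), so the numbers were not used as pairs. Libraries of the same code correlated at -0.073 to 0.062 for H3K4me3 and H3K27ac and at 0.040 to 0.12 for H3K27me3, over 0.1 in 2 of 9 pairs, and the code, whose meaning the labels do not give, served only as an alternative block. By the methods of the study the 2 tissues share animals, and 9 of the 10 codes were found in both tissues. The main tests leave a possible pairing by animal unused. No pair of libraries within a mark and tissue shared more than 0.21% of identical peak entries.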

Additional observations from a re-analysis of the deposited data

Results flagged for a closer look

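In 15 of 87 groups of member values, 1 library lay farther from the others than Dixon's test allows at 95%; chance flags about 1 in 20 groups, and many of these groups hold libraries at 0. In 7 of them the lone value was the only peak: H3K4me3 at the TSS of Chrnd in gastrocnemius replicate 7 (1.22 CPM per kb) and in its body (0.059), H3K4me3 in the body of Chrng in gastrocnemius replicate 8 (1.81), H3K27ac in the body of Chrnd in cortex replicate 7 (0.333), and H3K27me3 at the TSS of Dok7 in gastrocnemius replicate 10 (2.20), in the body of Dok7 in cortex replicate 2 (0.615) and at the TSS of Lrp4 in cortex replicate 6 (1.06).

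In 4 groups the lone library was the only one without a peak. These were H3K27ac at the TSS of Chrne and Rapsn in cortex replicate 9 (0 in both, against 1.47 to 2.60 and 1.81 to 2.40 in the others), the library with the fewest reads of the mark, H3K27ac at the TSS of Chrna1 in gastrocnemius replicate 1 (0 against 1.19 to 1.94), and H3K4me3 in the body of Chrne in cortex replicate 2 (0 against 0.886 to 1.45).

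In the remaining 4, all in gene bodies, the lone library was high: H3K4me3 of Lrp4 in cortex replicate 8 (0.850, others at most 0.672) and gastrocnemius replicate 9 (1.49, others at most 1.27), H3K4me3 of Agrn in gastrocnemius replicate 2 (1.87, others at most 1.23), and H3K27ac of Chrne in cortex replicate 9 (3.53, others at most 2.86).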

How the results depend on the processing

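Of 713 values of members under an alternative, 662 kept their direction and side of the threshold, 35 lost and 6 gained a call, and 10 reversed. H3K4me3 at the TSS of Agrn, not called, was -0.30 with median-of-ratios scaling, -0.019 with the run number as covariate, -0.28 with edgeR, -0.32 with DESeq2 and -0.22 in a window of 2.5 kb, and was called higher in gastrocnemius in each of these but the one with the covariate. H3K27ac at the TSS of Chrnd was 0.049 without the lowest-scoring peaks. H3K27ac at the TSS of Chrnb1, not called, was 0.10 in libraries without a run number and 0.11 both without the shallowest library of each tissue and without cortex replicate 9, and in the body of Chrng, not called, it was -0.0089 in libraries without a run number.

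Of 424 summary values, 384 stayed on the same side and within 1.5 times, and none reversed. For H3K4me3 at the TSS, genes called higher in cortex and in gastrocnemius numbered 5169 and 4844 with median-of-ratios scaling, 5388 and 4594 with edgeR and 5047 and 5043 with DESeq2, against 10273 and 2677, with 0 members higher in cortex in each; with a window of 2.5 kb 4244 genes were higher in gastrocnemius and 1 member higher in cortex. For H3K27ac at the TSS the numbers were 5914 and 5000, 5818 and 4532, and 5757 and 4968, against 9681 and 2601, again with 0 members higher in cortex, and 2 without the shallowest libraries. These 3 alternatives rescale the libraries to a typical gene. For H3K27me3 at the TSS, 1660 genes were higher in cortex with no filter, 1722 in libraries without a run number and 1613 with DESeq2, against 2706; 2 members were higher in cortex with no filter, without the lowest-scoring peaks and in libraries without a run number, and 1 was higher in gastrocnemius with edgeR and without gastrocnemius replicate 5. In gene bodies, 1 member was higher in cortex for H3K4me3 without the lowest-scoring peaks, in libraries without a run number, with edgeR and over the whole gene (where 6787 genes were, against 4244), and 0 were higher in gastrocnemius for H3K27me3 without the lowest-scoring peaks and in libraries without a run number. By Fisher's exact test in libraries without a run number, 530 genes had H3K27ac more often in gastrocnemius, 685 had H3K27me3 more often in cortex and 796 in gastrocnemius, with 0 members in cortex. Where not stated, the cause was not tested.

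With the title number as a replicate block, 10394 and 2614 genes were called for H3K4me3 and 2566 and 2361 for H3K27me3 at the TSS (higher in cortex and in gastrocnemius), and the only call of a member that changed under the replicate block or with the name code as a block was H3K27me3 at the TSS of Chrng (0.28 and 0.23, not called). Calls at few reads are limited by the threshold of the peak caller: a window without a peak can hold reads, and differences against a tissue without peaks depend on the added 0.5 CPM per kb.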
